A study of Xenopus laevis with 6 samples.

Results

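The cadherin and protocadherin adhesion genes of Xenopus laevis gastrulae were read out in single whole embryos by sequencing of polyadenylated RNA. Members were the rows of the gene count tables whose name starts with cdh or pcdh and a number, in all copies. They numbered 60 of the 45099 gene rows and stood for 34 gene names. By class they were 31 rows of classical cadherins, 9 rows of other cadherins and 20 rows of protocadherins.

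The control embryos (n = 3) were uninjected. The dkk embryos (n = 3) carried 100 pg of dkk mRNA, injected into both cells of the 2-cell embryo, and all embryos were frozen at developmental stage 11.5, in mid-gastrulation. Dickkopf is a secreted protein that blocks canonical Wnt signalling at its Lrp co-receptors, and the study asked which gastrula genes respond to that block. Every dkk embryo had a control sibling from its own mating, and the 3 sibling pairs came from 3 mating pairs, so each mating is represented by 1 embryo per group. The controls were not injected with another mRNA, so injection itself and dkk cannot be told apart. Strain and sex were not stated in the labels.

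Cadherins are membrane proteins that join neighbouring cells through calcium-dependent contacts of their outer domains. Classical cadherins anchor to actin through β-catenin and α-catenin, and β-catenin is also the signal carrier of the canonical Wnt pathway. Protocadherins lack the catenin-binding tail and are known less for strong adhesion than for cell sorting and cell movement. In the Xenopus gastrula the maternal classical cadherin encoded by cdh3, known as C- or EP-cadherin, holds blastomeres together, and paraxial protocadherin helps mesodermal cells to separate from ectoderm and to converge. Most genes of this species exist as an L and an S copy from its 2 subgenomes, named by their suffix.

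Reads in genes numbered 17460820 to 19880568 per embryo, of which the 60 members held 0.146% to 0.218%. Levels are given in CPM, the reads of a gene per 1000000 reads of its library, with library sizes scaled by the TMM method. They are not divided by transcript length, so a level is compared between embryos and not between genes. Reads of dkk1.S, which may include the injected mRNA, averaged 15.2 CPM in control and 570 CPM in dkk embryos. The mesodermal marker rows, 8 in number, summed to 1091 to 1135 CPM in the controls, against 358 to 432 CPM in their siblings, and 4 of them fell in the test used below. The 8 organizer and axial marker rows had sums of 433 to 524 CPM and 650 to 896 CPM, in the same order, with none past the threshold. Epidermal markers ranged from 172 to 468 CPM in the controls and from 149 to 695 CPM after dkk injection, most of it from the keratin row krt12.S. Of 5 tested epidermal rows 0 rose and 1 fell, tp63.S, with means of 24.4 CPM and 3.65 CPM. The dkk embryo of pair 3 stood apart from the other dkk embryos in several markers. It had 86.8 CPM of the organizer gene gsc.L against 19.1 CPM or less in the others. It had 211 CPM of the endodermal gene gata4.L against 82.4 and 145, and 6.03 CPM of the muscle gene myod1.S against 26.0 and 29.7. Several other rows of the same lists did not set it apart. In dkk embryos 1 to 3 sox17a.L stood at 120, 142 and 122 CPM and t.L at 106, 112 and 106 CPM. The endodermal rows summed to 522 to 853 CPM in controls and 647 to 917 CPM in dkk embryos, with none past the threshold. Of 5 listed symbols each, 4 had a row in the mesodermal, organizer and endodermal lists and 3 in the epidermal list. Markers of later differentiated tissues stayed at a sum of 0.680 to 15.3 CPM, with neurod1.S at 0 in all embryos. In whole embryos fewer cells of a type and less RNA per cell cannot be told apart, and the part that these shifts have in the values below was not tested.

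The test found no cadherin or protocadherin gene past its threshold in either direction. Of the 60 members, 36 had enough reads to be tested. In the fit over all 21643 tested genes (edgeR quasi-likelihood test with the mating pair as a block), 0 of the 36 had a Benjamini-Hochberg adjusted p under 0.05. Over all tested genes 0.106% passed with higher levels and 0.467% with lower levels. None of the members stood among the 97 genes of the authors' deposited table. That table is short beside the 45099 gene rows, so the absence of members from it says little. An unadjusted p under 0.05 was met by 6 members, all of them lower in dkk embryos, and by 0 higher ones. These are 16.7% of the tested members, beside 4.19% of all tested genes that were lower and 3.63% that were higher by the same rule. They include both copies of cdh3 and both of pcdh8.2, counted as separate members. In the edgeR fit on summed copies, 4 of 26 tested members were lower and 1 higher by that rule, and the share over all genes was not taken there. The DESeq2 Wald test called 1 of 38 tested members, cdh3.L, beside 391 of 21985 genes. With limma-voom 0 of 36 were called, beside 145 of 21643 genes. The plot of sibling pairs shows the 6 members with the smallest p-values.

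**Figure D1:**
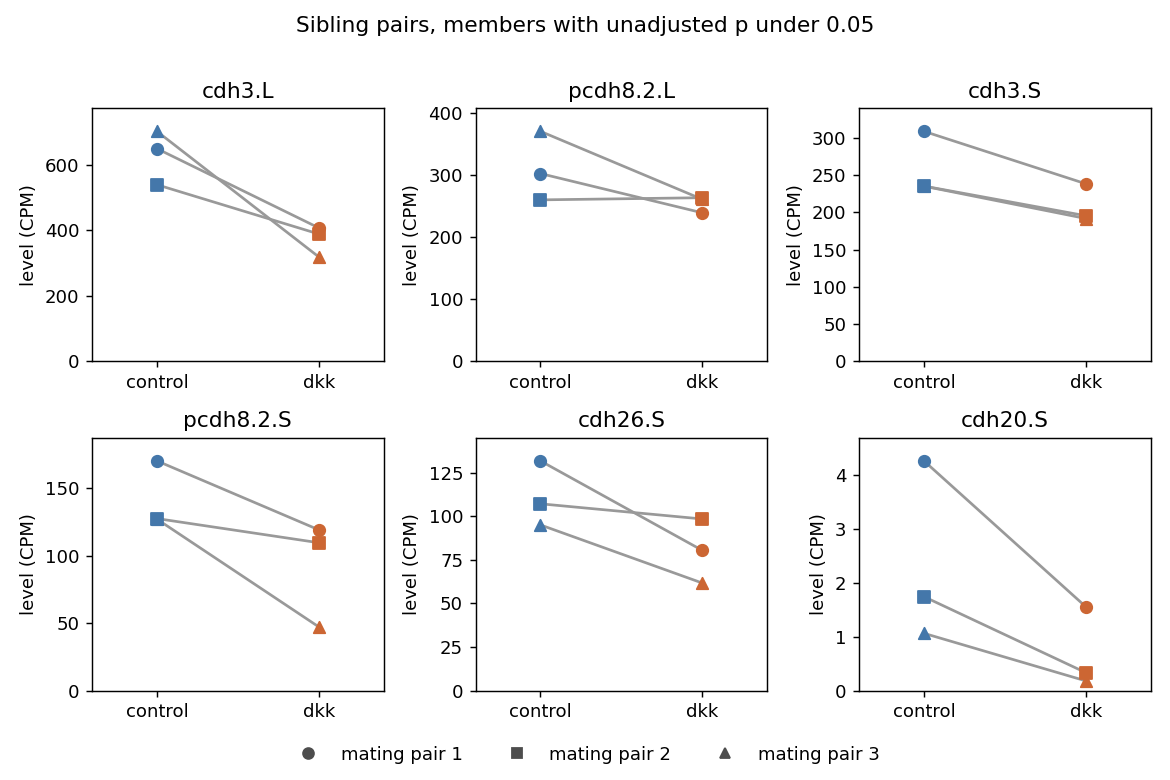
Level in CPM (vertical axes, each starting at 0) of the 6 members with an unadjusted p under 0.05, in control and dkk embryos. Grey lines join siblings and symbols mark the mating pair. The control and dkk values of cdh3.L and pcdh8.2.S do not overlap, and pcdh8.2.S is lowest in the dkk embryo of pair 3, at 47.3 CPM.

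The maternal cadherin cdh3 held most of the reads of classical cadherins, 72.7% to 82.2% in controls. Its L copy, cdh3.L, stood at 651, 540 and 704 CPM in controls 1 to 3 and at 408, 389 and 319 CPM in their dkk siblings. All dkk embryos were below all controls, and the gap was widest in pair 3, whose dkk embryo also stood apart in some of the markers above. The fitted ratio was 0.590 (log2 fold change -0.76 ± 0.13, SE), and it missed the threshold, with 0.0694 as its adjusted p (edgeR). The call turned on single pairs and on the method. Without pair 1 the adjusted p of cdh3.L was 0.0231, without pair 3 it was 0.0206, and without pair 2 it was 0.0979 (edgeR). It was 0.000808 with DESeq2, 0.0571 with limma-voom and 0.672 in edgeR without the block, and the log2 fold change lay between -0.91 and -0.57 in these fits.

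The S copy, cdh3.S, stood at 309, 235 and 235 CPM in controls and at 238, 195 and 192 CPM in dkk siblings. It was lower in 3 of 3 pairs by similar steps, with log2 ratios of -0.37, -0.27 and -0.29, while the groups overlapped because of the high values of pair 1. Its log2 fold change of -0.31 ± 0.09 (SE) did not pass (adjusted p = 0.333, edgeR). Counted together, the cdh3 copies had 891 ± 101 CPM in the controls, against 581 ± 67.9 CPM in the dkk embryos (SD, n = 3 each), and the fit on summed copies gave -0.62 with an adjusted p of 0.0806 (edgeR). The sum was lower in each pair, with log2 ratios of -0.57, -0.41 and -0.88.

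E-cadherin, the cadherin of epithelia and of the gastrula ectoderm, is encoded by cdh1 and was read almost wholly from its S copy. cdh1.S stood at 266, 255 and 173 CPM in controls and at 272, 324 and 160 CPM in dkk siblings. Both embryos of pair 3 were below all others, and the pairs differed in sign. The log2 fold change was 0.09 ± 0.11 (SE), with a 95% interval of -0.18 to 0.35, and its sign turned to -0.05 without pair 2. The copy cdh1.L had 14, 27 and 34 reads in controls and 4, 14 and 33 in dkk siblings. At that depth its lower log2 ratio of -0.83 ± 0.43 (SE) did not pass (adjusted p = 0.713, edgeR).

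The summed level of the classical cadherins followed cdh3. All 31 rows together summed to 1157 ± 99.2 CPM in the controls, against 861 ± 138 CPM in the dkk embryos (SD, n = 3), lower in 3 of 3 pairs with log2 ratios of -0.41, -0.20 and -0.70. The 29 rows other than cdh3 had 266 ± 54.6 CPM and 280 ± 80.5 CPM, with log2 ratios of -0.000782, 0.25 and -0.10. Without cdh1 as well, 27 rows were left with 33.2 ± 4.40 CPM and 27.4 ± 5.07 CPM. The lower sum of classical cadherins was thus carried by the reads of 1 gene. The protocadherin sum was also lower on average, at 756 ± 59.6 CPM against 667 ± 109 CPM (SD, controls first). Its pairs differed in sign, with log2 ratios of -0.24, 0.11 and -0.44. Without the pcdh8.2 rows the mean protocadherin sum was not lower, at 303 ± 53.3 CPM and 320 ± 75.6 CPM. The pairs again differed in sign, with log2 ratios of -0.05, 0.29 and -0.04. Other cadherins summed to 118 ± 17.0 CPM and 86.0 ± 15.5 CPM, and cdh26 held 91.3% to 96.1% of their control reads.

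Apart from cdh11.L, the rows of type II cadherins had 184 reads or fewer in any embryo. cdh20, known in Xenopus as F-cadherin of the neural tube, had the deepest fitted ratio of the tested members. cdh20.S had 73, 32 and 21 reads in controls and 29, 6 and 4 in dkk siblings, which is 4.26, 1.74 and 1.06 CPM against 1.56, 0.334 and 0.181 CPM. It was lower in 3 of 3 pairs, with a log2 fold change of -1.97 ± 0.39 (SE), and the groups overlapped through the high values of pair 1. It missed the threshold (adjusted p = 0.102, edgeR). The neural plate row zic1.L had log2 ratios of -0.96, -1.62 and 0.38 in pairs 1 to 3, and its part in the cdh20.S values was not tested. With no filter on low counts the adjusted p was 0.0169, and over the other alternatives it ranged from 0.0705 to 1.00. The L copy, cdh20.L, had 80, 184 and 26 reads in controls and 61, 11 and 26 in dkk siblings. Its log2 ratios were -0.50, -3.82 and -0.15, so that its lower mean came from pair 2, and the fitted -1.44 ± 0.82 (SE) did not pass (adjusted p = 0.787, edgeR).

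Of the other type II genes, cdh11.L, a cadherin of migrating neural crest in Xenopus, stood at 8.63, 10.6 and 16.1 CPM in controls and 13.7, 10.8 and 14.9 CPM in dkk siblings. The groups overlapped, and the log2 fold change of 0.19 turned to -0.05 without pair 1. cdh6, first known from the kidney, had copies with opposite signs. cdh6.S was higher in 3 of 3 pairs (log2 fold change 0.47 ± 0.33, SE), and cdh6.L was lower in 3 of 3 pairs (-0.63 ± 0.37). Neither passed, with adjusted p-values of 0.827 and 0.771 (edgeR). The S copy had 19 to 52 reads per embryo and the L copy 13 to 29. Whether the copies differ in their response was not tested.

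Of the tested members, the muscle cadherin row cdh15.S varied most between the control embryos. It stood at 7.00, 3.05 and 0.405 CPM in controls 1 to 3 and at 3.06, 1.62 and 0.680 CPM in dkk siblings. The order of the pairs was the same in both groups, and the coefficient of variation over controls was 95.3%. A second row, cdh15.1, had 20, 5 and 17 reads in controls and 6, 3 and 15 in dkk siblings. Neither passed, with log2 fold changes of -0.66 ± 0.40 for cdh15.S and -0.95 ± 0.51 for cdh15.1 (SE). The remaining tested rows of this class, cdh24.S, cdh12.L, cdh12.1 and cdh18.S, had 6 to 28 reads per embryo and log2 fold changes from -0.10 to 0.53.

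Among the other cadherins cdh26.S was the row with a control mean above 50 CPM. It stood at 132, 107 and 95.1 CPM in controls and at 80.5, 98.5 and 61.7 CPM in dkk siblings. It was lower in 3 of 3 pairs, least so in pair 2, and the groups overlapped by the value of that dkk embryo. The log2 fold change of -0.49 ± 0.14 (SE) did not pass (adjusted p = 0.324, edgeR). cdh13.S, the copy of T-cadherin, which is held by a lipid anchor and has no cytoplasmic tail, had 26, 28 and 40 reads in controls and 22, 20 and 38 in dkk siblings, lower in 3 of 3 pairs (-0.34 ± 0.32, SE). cdh16-like.1.L, named after a kidney cadherin of mammals, had 8, 17 and 61 reads in controls and 15, 10 and 37 in dkk siblings, so the pairs disagreed in sign. cdh23-like.2.S, named after the tip-link cadherin of hair cells, had 45, 22 and 29 reads against 46, 10 and 46, and its log2 fold change of -0.14 turned to 0.20 without pair 2.

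**Figure D2:**
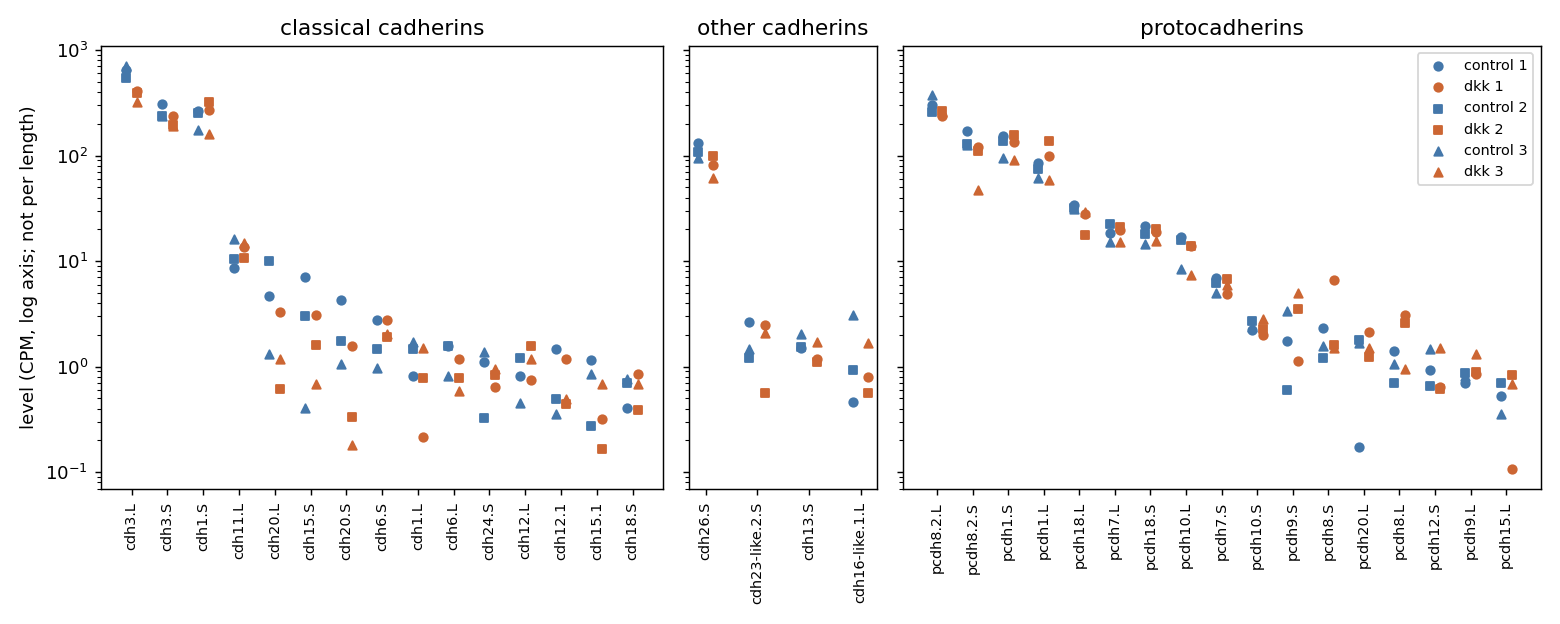
Level in CPM (log axis, not per length) of the 36 tested members in each embryo, by class and in order of the mean control level. Blue symbols are controls, orange symbols dkk embryos, and the symbol marks the mating pair. 8 members exceed 50 CPM in controls, while 18 lie below 2 CPM, where the symbols of one group spread widely.

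Among protocadherins the rows named pcdh8.2 held 55.1% to 67.1% of the reads of the class in controls. Paraxial protocadherin, of the paraxial and early involuting mesoderm, belongs to this pcdh8 group. The RefSeq table for assembly Xenopus_laevis_v10.1 lists papc as a synonym of pcdh8.L, and the annotation behind the counts may use these names otherwise, so the row that holds it is not settled here. pcdh8.2.S stood at 170, 128 and 127 CPM in controls and at 119, 110 and 47.3 CPM in dkk siblings. All dkk embryos were below all controls, and the lowest was the dkk embryo of pair 3, which stood apart in some of the markers given above. The log2 fold change of -0.72 ± 0.24 (SE) did not pass (adjusted p = 0.497, edgeR), and it was -0.36 without pair 3. Mesodermal markers moved in the same samples, as given above, and their part in this difference was not tested.

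The L copy, pcdh8.2.L, stood at 303, 260 and 371 CPM in controls and at 239, 264 and 261 CPM in dkk siblings. It was lower in pairs 1 and 3 and level in pair 2, where the log2 ratio was 0.02. Its log2 fold change of -0.28 ± 0.12 (SE) did not pass (adjusted p = 0.634, edgeR) and was -0.15 without pair 3. Both copies of the neighbouring gene pcdh8 were higher in the dkk embryos of pairs 1 and 2. pcdh8.L had 24, 13 and 21 reads in controls and 57, 47 and 21 in dkk siblings, and pcdh8.S had 40, 22 and 31 against 123, 29 and 33. Their log2 fold changes were 0.96 ± 0.43 and 0.67 ± 0.37 (SE), with ratios of -0.14 and -0.06 in pair 3, and neither passed (adjusted p = 0.657 and 0.755, edgeR).

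Axial protocadherin, a protein of the notochord in Xenopus, is encoded by pcdh1. pcdh1.L stood at 85.6, 75.3 and 61.1 CPM in controls and at 99.6, 137 and 58.8 CPM in dkk siblings. It was higher in pairs 1 and 2 and slightly lower in pair 3, with a log2 fold change of 0.34 ± 0.18 (SE; adjusted p = 0.725, edgeR). pcdh1.S stood at 154, 137 and 95.4 CPM in controls and 135, 155 and 89.9 CPM in dkk siblings. The lowest values in both groups were again those of pair 3, and the log2 fold change was -0.03, with a 95% interval of -0.29 to 0.23.

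pcdh7, whose L copy the RefSeq table also lists as NFPC, is known from the ectoderm and the neural folds of Xenopus. pcdh7.L stood at 18.5, 22.3 and 15.2 CPM in controls and at 19.9, 21.0 and 15.1 CPM in dkk siblings, a log2 fold change of 0.00 with a 95% interval of -0.38 to 0.39. pcdh7.S was at -0.05, with an interval of -0.62 to 0.52. Each value of pcdh7.L in a dkk embryo lay next to that of its sibling. pcdh18.L, a protocadherin of the same non-clustered group, was tight in controls at 33.9, 31.7 and 30.9 CPM. Its dkk siblings had 27.8, 17.6 and 29.0 CPM, all below all controls, and the lowest in pair 2. The log2 fold change of -0.41 ± 0.19 (SE) did not pass (adjusted p = 0.661, edgeR), and its other copy, pcdh18.S, was at 0.01 ± 0.18.

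pcdh10, known from the developing brain, did not pass in either copy. pcdh10.L was lower in 3 of 3 pairs, with a log2 fold change of -0.21 ± 0.18 (SE), and pcdh10.S was at -0.04 ± 0.29. pcdh10.L stood at 17.0, 15.8 and 8.40 CPM in controls and 13.9, 14.0 and 7.43 CPM in dkk siblings, lowest in both embryos of pair 3. The less abundant rows spread widely. pcdh9.S had 30, 11 and 66 reads in controls against 21, 63 and 111, and pcdh20.L had 3, 33 and 33 against 40, 22 and 33, so that 1 pair made most of the difference in each. pcdh9.L, pcdh12.S and pcdh15.L had log2 fold changes of 0.35, -0.18 and -0.06, none of them past the threshold.

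Set side by side, the classes had different medians, but the difference between them was not tested. The 15 tested classical cadherins had a median log2 fold change of -0.31, with 10 lower and 5 higher, and the 4 other cadherins one of -0.36, all lower. The 17 tested protocadherins had a median of -0.03, with 9 lower and 8 higher, beside -0.00131 over all tested genes. The classical median was -0.39, -0.47 and -0.15 in pairs 1 to 3, and the protocadherin median -0.21, 0.03 and -0.06. With the copies of each gene summed, the classical median was -0.08 and that of protocadherins 0.03. Of all 36 tested members, 12 were lower in every pair, 33.3% beside 13.9% of all tested genes, and 2 were higher in every pair, 5.56% beside 13.4%. The copies of a gene count here as separate members. Groups that did not overlap were found in 3 members, cdh3.L, pcdh8.2.S and pcdh18.L, or 8.33% beside 5.55% of all tested genes.

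**Figure D3:**
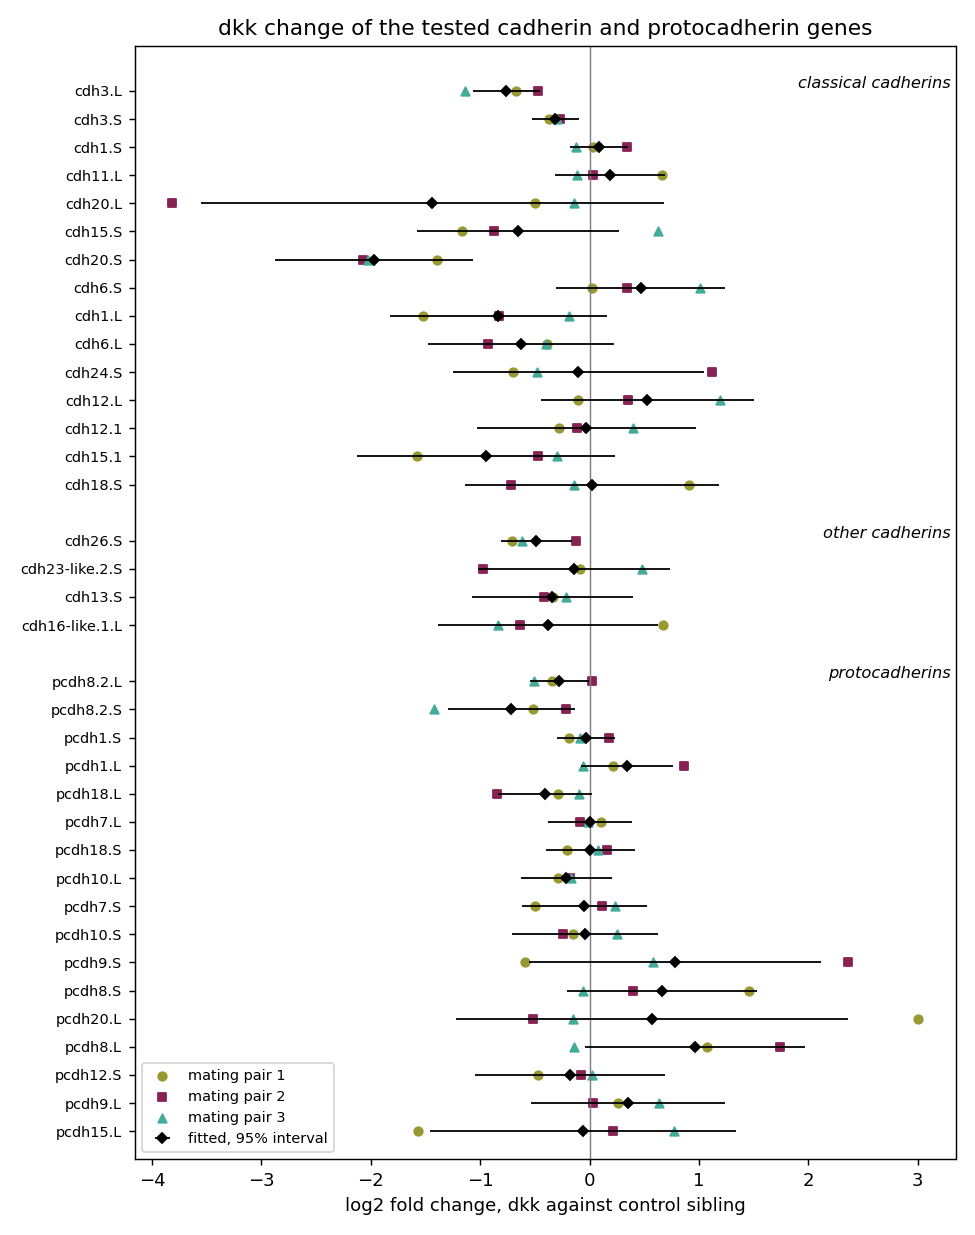
Log2 fold change of dkk embryos against their control siblings for the 36 tested members. Black diamonds with bars are the fitted values with 95% intervals that are not adjusted for the number of genes, and coloured symbols are the ratios of the 3 mating pairs. The intervals of cdh3.L, cdh3.S, cdh20.S, cdh26.S, pcdh8.2.L and pcdh8.2.S lie below 0, and those of low-abundance members such as pcdh20.L are wide.

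The 24 members that were not tested had 0 to 33 reads per embryo and 1 to 75 reads over all 6, and 12 of them were at 0 in at least 1 embryo. A count of 0 leaves room for up to about 3 reads, or 0.136 to 0.175 CPM at the depth of these libraries. They included both copies of the endothelial cadherin gene cdh5, of cdh8, cdh9, cdh10, cdh19 and cdh22, and the copies cdh11.S and cdh26.L of genes read from the other subgenome. Both copies of cdh7 were read mainly in mating pair 3: cdh7.S had 1, 3 and 19 reads in controls and 2, 7 and 33 in dkk siblings. cdh7.L had 20 reads in the dkk embryo of pair 3 and at most 2 elsewhere. The copies cdh13.L, with 7, 10 and 23 reads in controls and 2, 4 and 29 in dkk siblings, and cdh23-like.2.L, with 2, 4 and 18 against 2, 6 and 27, were likewise highest in pair 3. cdh11.S had 3 to 9 reads per embryo. No row stood under the names cdh2 and cdh4, the N- and R-cadherin genes, or under pcdh17, pcdh19 and pcdh8l.

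The L and S copies of a gene were often read unequally. The counts hold reads with a single alignment, so shares can move with how well the copies can be told apart. Reads with more than 1 alignment, 15.9% to 17.6% of counted reads, are left out. Of cdh1 the L copy held 0.306% to 0.982% of the reads in controls, and of cdh26 0.0442% to 0.529%, whereas of cdh11 it held 97.3% to 98.0%. In 11 genes both copies were tested. The L share of cdh3 was 67.8%, 69.7% and 75.0% in controls and 63.1%, 66.6% and 62.5% in dkk siblings, lower in each pair and without overlap. That of pcdh1 was 35.8%, 35.5% and 39.1% in controls and 42.5%, 47.0% and 39.5% in dkk siblings, higher in each pair. That of cdh6 was 36.5%, 51.8% and 45.7% in controls and 29.7%, 29.2% and 22.4% in dkk siblings, lower in each pair and resting on 345 reads in all. These 3 of 11 genes had no overlap between groups, or 27.3%, beside 6.35% of the 4549 genes of the whole table with both copies tested. A sign permutation over 3 pairs cannot give a two-sided exact p below 0.25, and the difference in share was not tested for any single gene.

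**Figure D4:**
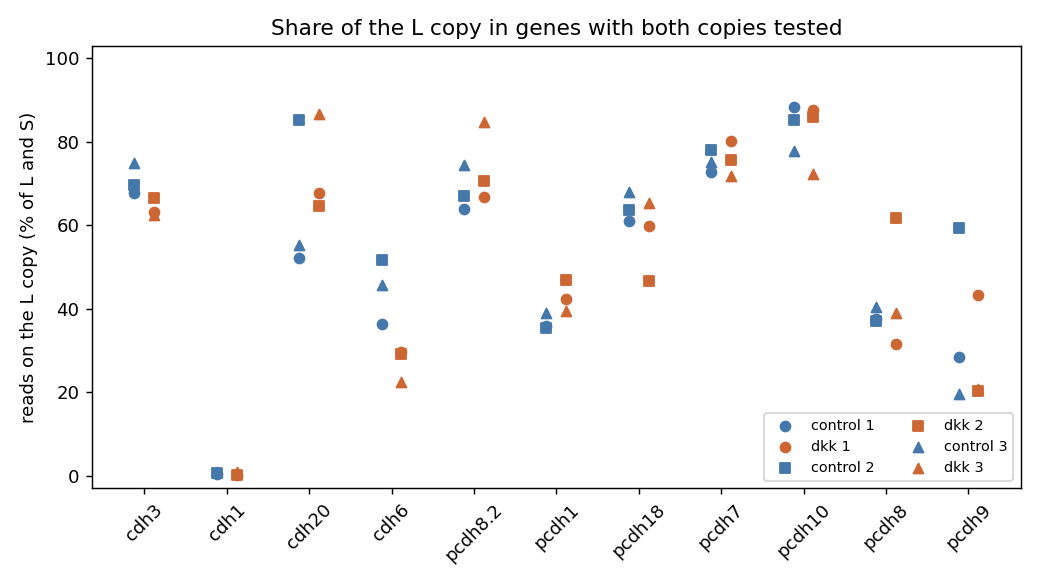
Share of reads on the L copy, in % of the reads on both copies, for the 11 genes with both copies tested. Blue symbols are controls, orange symbols dkk embryos, and the symbol marks the mating pair. Shares of cdh3 and cdh6 are lower in the dkk embryos and those of pcdh1 higher, without overlap, and cdh1 is read almost wholly from its S copy.

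Several members are next to each other in the RefSeq gene order. cdh1 and cdh3 are neighbours in both subgenomes, as are pcdh8.2 and pcdh8, pcdh18 and pcdh10, and cdh8 and cdh11. On the S subgenome the ratio of cdh3.S was -0.31 and that of its neighbour cdh1.S was 0.09. On the L subgenome pcdh8.2.L was at -0.28 and pcdh8.L at 0.96. These neighbours had fitted values of opposite sign, as did pcdh8.2.S (-0.72) and pcdh8.S (0.67), whereas cdh3.L and cdh1.L were both lower (-0.76 and -0.83), and so were pcdh18.L and pcdh10.L (-0.41 and -0.21). pcdh18.S and pcdh10.S were at 0.01 and -0.04. None of these rows passed the threshold. The contrasts did not hold in all pairs. In pair 3 pcdh8.L and pcdh8.S had ratios of -0.14 and -0.06, of the same sign as both pcdh8.2 copies. The value of cdh1.S turned to -0.05 without pair 2.

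Of the genes for proteins that link cadherins to the cytoskeleton, 5 of 16 listed symbols had a row. In this cadherin-catenin list 8 rows were tested, 0 passed in either direction, and no row had an unadjusted p under 0.05. Neither DESeq2 nor limma-voom called a row of this list. Their log2 fold changes ran from -0.30 to 0.12, with a median of -0.02. The α-catenin copy ctnna1.S stood at 1197, 1091 and 1286 CPM in controls and 1091, 1034 and 1196 CPM in dkk siblings (log2 fold change -0.11 ± 0.08, SE), and ctnna1.L was at 0.07 ± 0.10. The plakoglobin copies jup.L and jup.S, close relatives of β-catenin, were at -0.09 ± 0.09 and 0.05 ± 0.13. No row stood under ctnnb1 or ctnnd1, the β-catenin and p120-catenin genes.

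Of the rest of the cadherin superfamily, a list of large and desmosomal cadherins, calsyntenins and cadherin-related genes, 11 of 29 listed symbols had a row. In this list 12 rows were tested and 0 passed with edgeR, DESeq2 or limma-voom. At an unadjusted p under 0.05 there were 2 higher and 1 lower, beside 3.63% and 4.19% of all tested genes, and the median was -0.00169. Among regulators of cadherins and gastrulation adhesion 16 of 29 listed symbols had a row, and 30 rows were tested. Of these 1 rose, 0 fell and 29 did not pass, beside 0.106% of all tested genes that rose and 0.467% that fell. The median of this list was -0.14. DESeq2 called 2 higher and 2 lower, beside 124 higher and 267 lower among the 21985 genes it tested. At an unadjusted p under 0.05 there were 3 higher and 4 lower among the 30, beside the shares of all genes just given for that rule. In every pair 4 of the 30 were higher and 10 lower, beside 13.4% and 13.9% of all tested genes. By that count 2 were higher and 2 lower of the 12 superfamily rows, and 1 and 2 of the 8 cadherin-catenin rows. The gene that rose was lhx1.S, a LIM homeobox gene that acts upstream of paraxial protocadherin in Xenopus. It went from 73.1, 86.1 and 98.6 CPM in controls to 127, 139 and 169 CPM in dkk siblings, which is 0.75 ± 0.10 (SE) on the log2 scale (adjusted p = 0.0250, edgeR). The call was lost without pair 1 (adjusted p = 0.0545) and without pair 2 (0.124, edgeR). Chosen after its values were seen, rnd1.L encodes a small GTPase that, with Flrt3, lowers cdh3-based adhesion in Xenopus. It stood at 346, 390 and 358 CPM in controls and 210, 217 and 279 CPM in dkk siblings, without overlap, and missed the threshold (-0.64 ± 0.12, SE; adjusted p = 0.0728, edgeR). Its other copy rnd1.S was at 0.00 ± 0.10. The copies of flrt3 had opposite signs, with flrt3.L at -0.29 ± 0.15 and flrt3.S at 0.24 ± 0.12. Other rows of the list near the threshold included lhx1.L at 0.70 ± 0.12 (adjusted p = 0.0599, edgeR) and fn1.L at -0.49 ± 0.09 (adjusted p = 0.0934, edgeR).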

How the data were processed

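RNA of 6 embryos was analysed, 3 control and 3 dkk. The authors deposited raw read counts per gene, not normalized. The tools listed in the submitters' processing notes are TopHat2, SAMtools and HTSeq. Versions, settings, genome build and annotation were not given in the sources used here. Reads assigned to no gene, 25.6% to 28.2% of counted reads, entered neither library sizes nor tests. Most of them were reads with more than 1 alignment, 15.9% to 17.6% of counted reads. A further table of 97 genes deposited by the authors holds, per the file headers, a mean signal, a log2 fold change, its error and a test score, and p-values; it was searched for members only.

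Counts were tested with edgeR 4.0.16 (R 4.3.3): TMM scaling, filterByExpr (minimum count 10, total 15), robust quasi-likelihood F test, mating pair as block, Benjamini-Hochberg adjustment over 21643 genes, threshold 0.05. The design text states that siblings share a mating. Deviations from group means correlated at 0.674, 0.552 and 0.622 within pairs 1 to 3. P-values therefore rest on differences within the 3 sibling pairs. The error of each gene was moderated toward that of all tested genes. A p-value thus does not measure the spread of the gene's own 3 differences alone. Standard errors are those implied by the F statistic, and single-pair log2 ratios used a prior count of 2. Simulated data with planted changes were drawn a single time for each kind of dispersion. False calls were near the nominal rate with trended dispersions and above it with tagwise dispersions. Adjusted p-values may therefore be too small where genes vary unequally, but single draws cannot settle this for the real data.

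The members, classes, partner and marker lists were chosen with earlier results of these data known. Named were members with an unadjusted p under 0.05, the 6 with the highest control level in each class, fixed early-embryo genes, and further tested members given with their values. Tried besides were a model with no block, size factors of DESeq2 in edgeR, upper-quartile scaling, DESeq2 1.42.0, limma-voom (limma 3.58.1), no filter, at least 1 CPM in 3 libraries, summed copies and each pair left out. RefSeq names of Xenopus_laevis_v10.1 matched 44 of 60 member rows.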

Additional observations from a re-analysis of the deposited data

How the results depend on the processing

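Of 241 recalculated log2 fold changes of 22 named members, 219 kept their sign and stayed uncalled, 5 gained a call and 17 turned in sign. No member was called in the main fit, so a lost call could not occur. The 5 gained calls were those of cdh3.L with DESeq2, without a filter, without pair 1 and without pair 3, and that of cdh20.S without a filter. Control levels moved by less than 1 SD under both other scalings in all 44 cases.

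The number of members called lower was 0 of 36 tested. It was 1 of 38 with the DESeq2 Wald test and 2 of 60 with no filter. It was 1 of 39 without pair 1, 0 of 39 without pair 2 and 1 of 35 without pair 3. No setting called a member higher. Over all 21643 tested genes 23 were called higher and 101 lower. Without the replicate block these were 1 and 13, with the DESeq2 Wald test 124 and 267, with no filter 112 and 231, and with a pair left out 6 to 332 and 52 to 327. Genes tested numbered 21985 with DESeq2, 35909 with no filter, and 22119, 22269 and 21750 without pairs 1, 2 and 3. With summed copies 66 genes were called lower. The share of lower genes among all calls was 81.5%, and it was 92.9% without the block, 68.3% with DESeq2, 67.3% with no filter and 49.6% without pair 3. Without the replicate block 0 members passed, and cdh3.L had a log2 fold change of -0.76.

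The median of the 36 tested members was -0.08. With DESeq2 it was -0.19, but there it was taken over all 60 members, the untested ones included. With a pair left out it ranged from -0.183 to -0.0529, over the 35 to 39 members tested in those fits. The classical median of -0.31 was -0.0779 with summed copies.

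The sign turned with summed copies in cdh1.L (0.0802), pcdh1.S (0.117), pcdh18.S (-0.232), pcdh7.L (-0.0105), ctnna1.L (-0.0917) and jup.S (-0.0578). It turned without the block in pcdh18.S (-0.000421) and pcdh7.L (-0.000879), and with no filter in the same copies, pcdh18.S (-0.000804) and pcdh7.L (-0.00765). With a pair left out the sign turned in 8 rows, whose values ranged from -0.0488 to 0.196 for cdh1.S, -0.0461 to 0.359 for cdh11.L, -0.474 to 0.196 for cdh23-like.2.S, -0.141 to 0.0416 for pcdh1.S, -0.0712 to 0.113 for pcdh18.S, -0.0529 to 0.0404 for pcdh7.L, -0.183 to 0.172 for pcdh7.S and -0.0396 to 0.185 for jup.S. lhx1.S was no longer called without the block. Except for summed copies, fewer pairs and the DESeq2 median of all members, whose construction changes what is compared, the cause was not tested. Counts below about 30 reads per embryo, as in most type II cadherins, limit what can be told of the less abundant members.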
